A study of Mus musculus with 4 samples.

Results

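Regulators of apoptosis and caspases were compared between peritoneal exudate cells of wild-type mice and of mice without C/EBPε, the product of Cebpe, which acts in the late steps of granulocyte maturation. The members were 29 genes chosen from a list of BCL2 family proteins, caspases, inhibitors of apoptosis and death receptor adaptors, and a gene was read where a probe set carried its symbol and no other. This held for 21 of the 29, with 28 probe sets, of 6137 genes named this way in all. The other 8, Bcl2a1a, Bcl2a1b, Bcl2a1d, Bax, Casp8, Apaf1, Traf3 and Ripk1, were not analysed here. The wild-type (+/+) and deficient (-/-) mice were of a mixed 129/SvEv x NIH Black Swiss background, 6 to 8 weeks old, 4 per genotype, and all had received 2 ml of 4% thioglycollate broth, a sterile irritant, in the peritoneal cavity 24 h before lavage. Per the labels the cells of both genotypes were about 60% neutrophils, 30% monocytes and 7 to 10% lymphocytes, counted on 100 to 200 cells per cytospin. Total RNA was hybridised to 2 Affymetrix array types, A with 6529 and B with 6540 probe sets besides controls, with 1 array per genotype and type. The text on how cells of the mice were combined breaks off in the labels, so it is not known here whether an array stands for 1 mouse or a pool. No difference given here therefore has a replicate check, and no test was possible.

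Apoptosis is run by caspases, proteases that are made as inactive precursors. In the mitochondrial route, BH3-only proteins such as BIM engage the pro-survival BCL2 proteins and free BAX and BAK to open the outer mitochondrial membrane, after which APAF1 activates caspase 9. In the receptor route, ligand-bound FAS or TNF receptors recruit FADD, TRAF and RIPK1 proteins, and c-FLIP holds caspase 8 in check. Neutrophils are short-lived cells whose survival depends strongly on MCL1, and inflammatory signals lengthen their life, while macrophages clear them after they die.

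Promoter windows are shown for the 3 members on which the results below turn: Bcl2l1, with the highest ratio of any member probe set, Bcl2, the member detected above the signal floor in just the wild type, and Cflar, with the lowest ratio. They run from 250 bases before to 50 bases after a transcription start in RefSeq (GRCm38.p6), each 5′ to 3′ on the strand of its gene. Capitals mark a match to TTGCNNAA on either strand, a core of the sequence bound by C/EBP proteins.
Bcl2l1, the most upstream of its 3 windows, chr2:152831679-152831978, minus strand: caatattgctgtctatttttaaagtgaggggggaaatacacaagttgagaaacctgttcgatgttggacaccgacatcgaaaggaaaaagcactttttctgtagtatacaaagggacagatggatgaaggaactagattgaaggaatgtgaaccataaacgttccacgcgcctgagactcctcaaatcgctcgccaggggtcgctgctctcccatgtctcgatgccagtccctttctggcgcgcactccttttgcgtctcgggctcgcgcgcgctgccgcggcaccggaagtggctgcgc
Bcl2, chr1:106714241-106714540, minus strand: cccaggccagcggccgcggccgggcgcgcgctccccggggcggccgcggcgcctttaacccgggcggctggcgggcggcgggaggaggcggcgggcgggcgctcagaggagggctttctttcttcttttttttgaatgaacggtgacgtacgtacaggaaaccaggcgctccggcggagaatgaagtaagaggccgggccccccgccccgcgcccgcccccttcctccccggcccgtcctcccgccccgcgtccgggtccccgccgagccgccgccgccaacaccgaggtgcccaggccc
Cflar, chr1:58711241-58711540, plus strand: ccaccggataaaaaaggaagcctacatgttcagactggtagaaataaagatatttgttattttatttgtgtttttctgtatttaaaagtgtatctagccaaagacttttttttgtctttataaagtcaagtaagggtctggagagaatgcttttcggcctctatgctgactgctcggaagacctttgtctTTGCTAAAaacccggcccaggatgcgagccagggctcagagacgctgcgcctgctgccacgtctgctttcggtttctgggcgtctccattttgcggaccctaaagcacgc
The Cflar window held 1 match, TTGCTAAA, at positions -60 to -53 from the start, while the windows of Bcl2 and Bcl2l1 held none. Of the 21 member genes, 2 had a match, Cflar and Bid (TTCCGCAA at -90 to -83), and 12.2% of 27025 genes with a window did (10.8% of 32851 windows). Searched the same way on both strands, the NF-kappa-B core GGANTTNCC was found for Casp4 and Mcl1 (4.54% of all genes and 3.95% of windows), the forkhead motif GTAAACA for Bcl2l11 and Casp4 (4.05% and 3.65%) and the STAT motif TTCNNNGAA for Fas (9.55% and 8.30%), in 1 or more windows of each gene. A match describes letters in the window and not binding. The transcription starts used for the Cflar and Bcl2l1 windows lie inside the annotated genes, whose upstream ends are at bases 58711311 and 152833803. The sequence before those ends was not covered in full by these windows.

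Signals are the deposited intensities after both arrays of a type were scaled to a common trimmed mean, and the floor is the median signal of a type, 1036.5 on A and 690.1 on B. Where both genotypes exceeded the floor, the log2 ratio of deficient to wild-type signal was taken. Where 1 of them did, the gene has only a bound, its brighter signal over the floor. Of the 21 members, 12 had a ratio, 1 had a bound and 8 were at or below the floor in both genotypes. Thus 61.9% of the members read were above the floor in 1 genotype or both, as against 61.1% of all named genes.

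**Figure D1:**
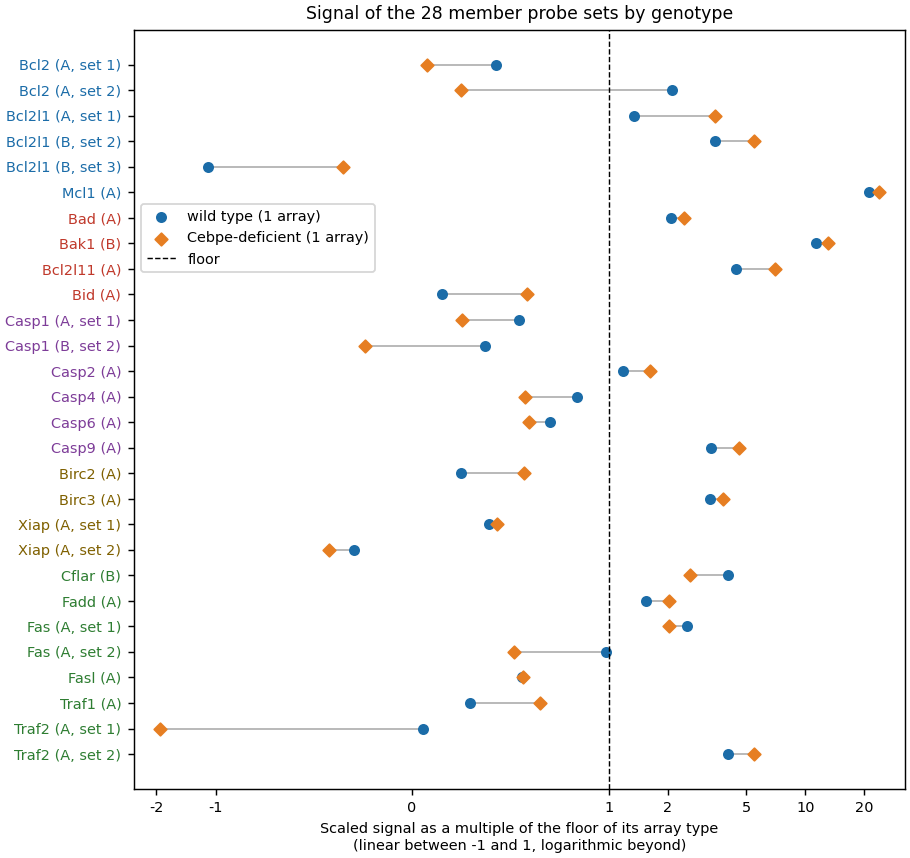
Scaled signal of the 28 member probe sets as a multiple of the floor of their array type, wild type as circles and Cebpe-deficient as diamonds, 1 array each, with gene names coloured by role. The axis is linear between -1 and 1 and logarithmic beyond, and 14 probe sets lie left of the dashed floor in both genotypes.

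Of the 12 members with a ratio, 10 read higher and 2, Cflar and Fas, read lower in deficient cells, and their median log2 ratio was 0.31. Over all 3131 named genes with a ratio the median was 0.01, and 51.1% were above 0. Each gene being read by its probe set with the highest signal, 0 of these 12 ratios reached 2-fold, where 6.61% of all named genes with a ratio did (2.97% higher and 3.64% lower). The remaining member above the floor, Bcl2, had a bound past 2-fold in the lower direction, described below. The SD between repeat probe sets of the same gene was 0.45 log2 units where the gene's signal was under 3 times the floor (90 genes) and 0.35 above (334 genes), and it holds no spread between mice. The ratios of 6 members exceeded 1 such SD and 0 exceeded 2. The share of all named genes past these limits was not computed, so the count has no background to be read against. Between genes, the ratios had an SD of 0.38 over the 12 members and 0.55 over all named genes.

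**Figure D2:**
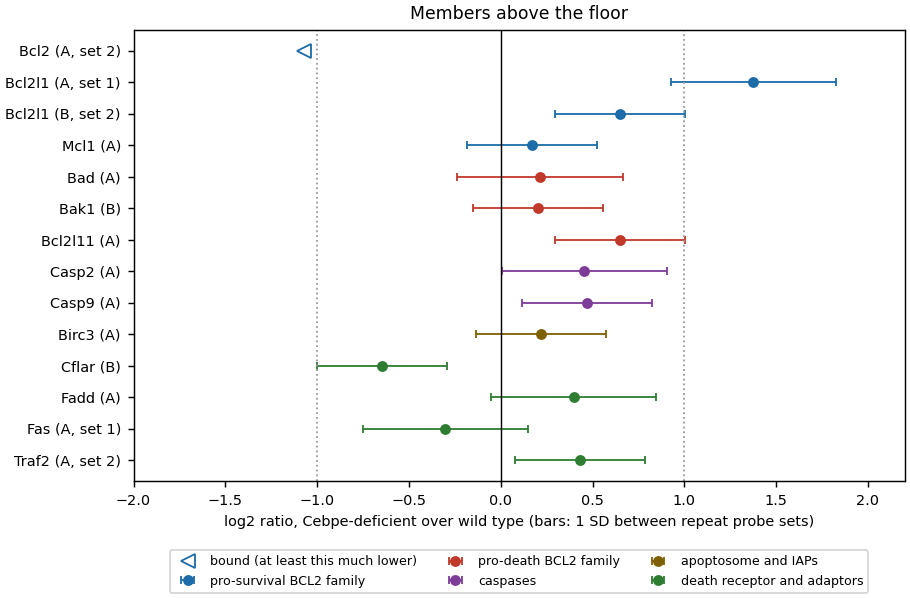
Log2 ratio, Cebpe-deficient over wild type, of the member probe sets above the floor, with bars of 1 SD between repeat probe sets of a gene and dotted lines at 2-fold. The open triangle is the bound for Bcl2, and Bcl2l1 on A is the single ratio past 2-fold.

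Among the pro-survival BCL2 genes, Bcl2l1 read higher and Bcl2 lower in deficient cells, while Mcl1 differed little. Bcl2l1 encodes BCL-XL, which binds BAX, BAK and BH3-only proteins. On A it read 1391 in wild-type cells and 3613 in deficient ones, 2.60-fold higher (log2 ratio 1.38). On B its readings were 2406 and 3779, 1.57-fold higher (log2 ratio 0.65), and since this probe set was brighter relative to its floor it was the one counted for the gene. Both probe sets put the deficient cells higher, but they placed the gene on opposite sides of 2-fold. The ratio on A was 3.06 times, and that on B 1.84 times, the SD between repeat probe sets at that signal. The probe set on A was the single one of 13 member probe sets with a ratio to pass 2-fold, as 6.83% of all probe sets with a ratio did. In the signal range of Bcl2l1 on A, under 3 times the floor, 2.36% of probe sets were higher by 2-fold or more. The remaining Bcl2l1 probe set, also on B, read below 0 in both genotypes (-757 and -244) and gave no ratio.

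Bcl2, the founding member of the family, read 2177 in wild-type cells and 259 in deficient ones. Only the wild-type signal was above the floor, so the gene was at least 2.10-fold lower, a log2 bound of -1.07. The bound was just under 2-fold (-0.98) when arrays were scaled to the bacterial controls, and there was none under a 70th-percentile floor. Its other probe set, made from the same sequence entry, read 440 and 81, below the floor in both genotypes and lower again in deficient cells. Of 618 named genes above the floor in 1 genotype only, 9.06% had a bound of 2-fold or more in this direction. BCL2 is well expressed in lymphocytes, whose markers above the floor mostly read lower in deficient cells. Cd2 and the Ms4a1 probe set counted read higher. Of the 7 T and NK cell markers with a named probe set, 0 had a ratio. Cd3e exceeded the floor in wild-type cells alone (1901, and 921 in deficient ones). Cd2 did so in deficient cells alone (144 in wild-type cells and 748 in deficient ones), close above the floor of 690.1. Cd3d, Cd3g, Cd4, Cd8a and Thy1 were at or below the floor in both genotypes. Of the B cell markers, Cd22 exceeded the floor in wild-type cells alone (1709 and 284). Ms4a1 read higher in deficient cells by the probe set counted (6429 and 8972, log2 ratio 0.48) and lower by another (-0.30). The other 3 with a ratio read lower. The summed signal of the 3 B cell markers with a ratio on A was 39807 in wild-type cells and 33998 in deficient ones. For the 2 with a ratio on B it was 29484 and 21696. Most of the sum on A came from Ighm (26765 and 18900). Cd79b differed less (6614 and 6127), and Ms4a1 went the other way, so the lower sum on A reflects Ighm. The part of lymphocytes in the lower Bcl2 signal was not tested. In such a mixture, fewer cells of a type and less RNA per cell cannot be told apart.

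Mcl1, the pro-survival protein with a short life on which neutrophils rely, was far above its floor. It read 21747 in wild-type cells and 24458 in deficient ones, 1.12-fold higher, a log2 ratio of 0.17 that was under 1 SD between repeat probe sets.

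The pro-death BCL2 genes with a ratio all read higher in deficient cells (median log2 ratio 0.21, 3 genes). Bcl2l11 encodes BIM, a BH3-only protein that binds every pro-survival member and ends the life of granulocytes when growth factors are withdrawn. Its signal was 4616 in wild-type cells and 7245 in deficient ones, 1.57-fold higher, or 1.83 times the SD. Bak1, the gene of the membrane-permeabilising protein BAK, read 7847 and 9032, 1.15-fold higher. For Bad, whose BH3-only product is held inactive by growth factor signalling, the readings were 2155 and 2498, 1.16-fold higher. These 2 differences were under 1 SD. Bid, which links death receptors to the mitochondrial route, read 155 and 606 and lay below the floor in both genotypes.

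Of the 5 caspase genes read, the 2 above the floor were higher in deficient cells. Casp9, the initiator caspase of the apoptosome, read 3433 in wild-type cells and 4748 in deficient ones, 1.38-fold higher (1.32 times the SD). Casp2, an initiator caspase activated on the PIDDosome, read 1225 and 1680, 1.37-fold higher, with the wild-type signal close above the floor and a difference 1.01 times the SD. The other 3 were at or below the floor in both genotypes. Casp1, which processes interleukin 1 beta, read 564 and 264 on A and 255 and -167 on B. Casp4, the sensor of cytosolic lipopolysaccharide also called caspase 11, read 871 and 593, and the effector Casp6 729 and 619. All 4 of these probe sets read lower in deficient cells, at signals that give no ratio here.

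Among the apoptosome and inhibitor of apoptosis genes, Birc3, which encodes the ubiquitin ligase cIAP2, was the single one above the floor. It read 3412 in wild-type cells and 3977 in deficient ones, 1.17-fold higher and under 1 SD. Its neighbour Birc2, for cIAP1, read 260 and 589, and Xiap, whose product binds and blocks caspases directly, read 405 and 450 by 1 probe set and below 0 by the other, all under the floor.

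The death receptor genes went both ways, with a median log2 ratio of 0.05 over 4 genes. Cflar encodes c-FLIP, the catalytically inactive relative of caspase 8 that restrains it at death receptors. It read 2789 in wild-type cells and 1779 in deficient ones, 1.57-fold lower and 1.83 times the SD. Fadd, the adaptor that joins FAS to caspase 8, read 1603 and 2113, 1.32-fold higher and under 1 SD. Traf2, an adaptor of TNF receptors, read 4217 and 5696, 1.35-fold higher and 1.22 times the SD, while its other probe set read 56 and -1991. Together with Fas, described next, 2 of these 4 genes read lower and 2 higher, each by less than 2-fold.

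Fas, the death receptor itself, read 2594 in wild-type cells and 2105 in deficient ones, 1.23-fold lower and under 1 SD. That probe set has no sequence accession in the platform annotation, so its identity rests on the annotated symbol. A probe set of the same name on B did not carry Fas as its single symbol and was not read for the gene. Its log2 ratio was -0.08. The second Fas probe set read 1022 and 539, the wild-type value just under the floor, and was lower in deficient cells as well. Fasl, the ligand, made mainly by T and NK cells, read 580 and 584, alike in both genotypes and below the floor. Traf1, an adaptor gene induced by NF-kappa-B, read 307 and 674, also below it.

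**Figure D3:**
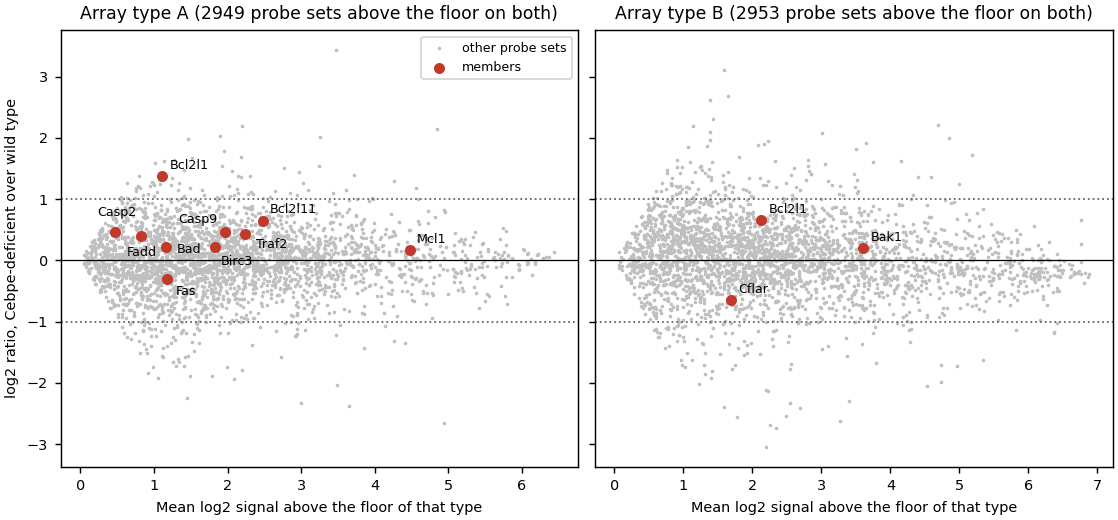
Log2 ratio against mean log2 signal above the floor for the 2949 probe sets of A and 2953 of B above the floor in both genotypes, with members in red and dotted lines at 2-fold. All members but Bcl2l1 on A lie between the lines, among the bulk of the other probe sets.

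Other genes of the same pathways were read from a list of 65, of which 35 had a named probe set and 25 a ratio. They were divided evenly, 13 above 0 and 12 below, with a median log2 ratio of 0.02. Of these 25, 2-fold was passed by 2 in the higher and 3 in the lower direction. Among all named genes with a ratio, 2.97% and 3.64% did so. Tnfrsf1b, the second TNF receptor, which signals through TRAF2, read 5747 in wild-type cells and 16718 in deficient ones, a log2 ratio of 1.54, with 1.53 by its other probe set. Traf4, a TRAF family adaptor, read 1872 and 4738, 2.53-fold higher. Daxx, a nuclear protein first described as a partner of FAS, read 8621 and 2240, 3.85-fold lower. Bag3, a co-chaperone that binds BCL2, read 3275 and 1243, 2.64-fold lower, and Il1b, the substrate of caspase 1, read 11708 and 5412, 2.16-fold lower.

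The 3 of these genes brightest against their floor were Cycs, Tnfrsf1b and Tnfrsf21. Cycs, cytochrome c, which activates APAF1 once it leaves the mitochondria, read 15591 in wild-type cells and 10748 in deficient ones (log2 ratio -0.54, and -0.30 by its other probe set). Tnfrsf21, a TNF receptor family member also called death receptor 6, read 8153 and 9842 (0.27). Tnfrsf1a, the first TNF receptor, read 9548 and 7886 (-0.28), so the TNF receptors differed in the direction of their ratios. Aifm1, the mitochondrial apoptosis-inducing factor, had a log2 ratio of 0.91.

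Markers of the main cells of the exudate were present in both genotypes but not at equal levels. Of 10 neutrophil markers, 7 had a named probe set, and all 6 with a ratio read lower in deficient cells (median log2 ratio -0.96). The brightest, S100a8 (-0.08) and S100a9 (-0.24), differed least. By 2-fold or more, 3 were lower, as 3.64% of all named genes with a ratio were. Sums were taken on each array type apart, so a gene can enter both. For neutrophil markers with a ratio, 4 on A and 3 on B, the summed signal was 134328 in wild-type cells and 104642 in deficient ones on A. On B it was 44494 and 32143. Of the 11 monocyte and macrophage markers, all with a ratio, 5 were above 0 and 6 below (median log2 ratio -0.43). Of these, 2, Mrc1 (-2.30) and Cd14 (-1.03), were lower by 2-fold or more and 0 higher. The highest were Ccr2 (0.97), Csf1r (0.84) and Mpeg1 (0.67). Summed in the same way, over 6 genes on A and 7 on B, their signals were 214979 and 213720 on A and 282248 and 238774 on B. The part of these cells in the members' ratios was not tested. Of 4 eosinophil markers with a probe set, Ccr3 had a ratio (-1.92) and 3 were below the floor in both genotypes. For mast cell, mesothelial and fibroblast, and erythroid markers, 3, 4 and 2 genes had a ratio, with medians of -0.14, -0.85 and -0.79, and for B cell markers 4 had, with a median of -0.24. No probe set was annotated to Cebpe, so the genotype labels were not checked by the targeted gene.

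**Figure D4:**
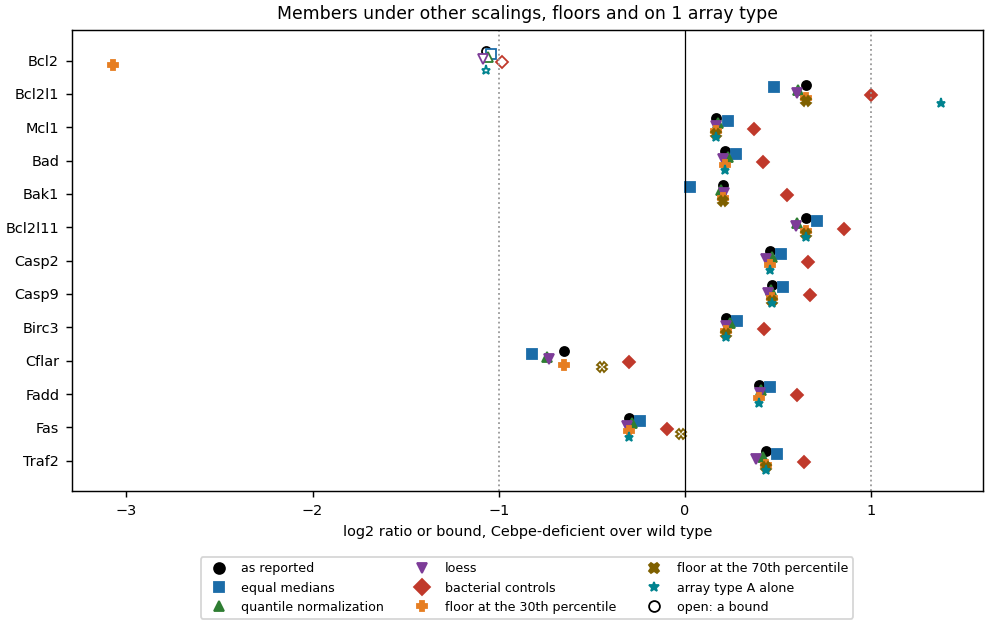
Log2 ratio or bound (open symbols) of the 13 members above the floor, as reported and under other scalings, floors and array type A alone, with dotted lines at 2-fold. Each keeps its side of 0 under the settings drawn, Bcl2l1 ranges from 0.48 to 1.38, and Bcl2 goes from a bound near 2-fold to a ratio of -3.07 under a floor at the 30th percentile.

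Each of the 12 ratios kept its side of 0 under the 5 other scalings tried. Among these, no scaling nearly repeats the reported setting, whose factors were 0.9998 to 1.0002, and is no separate check. Under scaling to the bacterial hybridisation controls, which moved the median of all named genes to 0.24, the members' median was 0.58, and 10 of 12 were above 0, where 70.6% of all named genes were. The members' median lay above that of all named genes by 0.30 as reported, 0.34 under that scaling and 0.20 under a floor at the 30th percentile. Equal medians brought Bak1 to 0.03 and Bcl2l1 to 0.48, and the bacterial controls brought Fas to -0.10. Under a 30th-percentile floor (255.9 on A and 35.0 on B), 20 members had a ratio, with a median of 0.21, and 14 of these were above 0, where 51.0% of all named genes were. Birc2 and Traf1 then read 2.26-fold and 2.19-fold higher, and Casp1 and Bcl2 2.14-fold and 8.41-fold lower, at a floor where 13.6% of all named genes passed 2-fold. The lower signal of each of Birc2 (260.1), Casp1 (263.9) and Bcl2 (258.9) was then just above that floor, and that of Traf1 was 307.1.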

How the data were processed

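Each probe set has 1 deposited intensity, a linear value, and 20.6% to 29.3% of them were below 0. How the authors computed, background-corrected or scaled these is not given in the sources used here. Groups came from the sample titles, and the RNA source text of the deficient type B array does not name the deficiency. Gene symbols came from the platform annotation, with a probe set of several symbols left out (1 of these included members). The IDs of all 21 members read matched the mouse RefSeq table.

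Within each array type both arrays were scaled to 1 trimmed mean (2% dropped at either end, controls left out), with factors of 0.9998 to 1.0002, and the median over the pair set the floor. A gene was read by its probe set with a ratio and the highest signal relative to the floor. Measurement error was the SD pooled over 424 genes with repeat probe sets (0.38 log2 units). With 1 array per genotype and type, the number of arrays limits the precision and no p-value is given. Promoters came from RefSeq (GRCm38.p6), and all 21 members matched. The ratio step was tested on simulated data, with changes placed only in probe sets well above the floor. The simulated noise was smaller than the SD between repeat probe sets. No placed change ended as a bound, so the bound step and signals near the floor were not tested. Named genes were every member read, and of the other pathway genes those past 2-fold and the 3 with the highest signal. Aifm1, Tnfrsf1a and the marker genes named with values were added after their values were seen. The members, lists and motifs were chosen with earlier results of these data known. The NF-kappa-B core was shortened by its first base after the longer form had been searched, which matched Casp4 but not Mcl1. Python 3.11.15, numpy 2.4.6, pandas 2.3.3, statsmodels 0.14.6 and matplotlib 3.10.9 were used.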

Additional observations from a re-analysis of the deposited data

How the results depend on the processing

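The values were recomputed without scaling, with equal medians, quantile normalization, a loess of span 0.3 and bacterial-control scaling, with floors at the 30th and 70th percentiles, a gene's mean over its probe sets, 3-fold in place of 2-fold, bounds entered in the medians, 1 array type at a time and no suffixed probe sets. Leaving out suffixes other than _s was chosen after seeing the data. No paired analysis was possible because each genotype had 1 array per type, and for the same reason no replicate could be left out.

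The members' median log2 ratio of 0.31 became 0.58 with bacterial controls, 0.43 under a 70th-percentile floor (7 genes), 0.22 with bounds entered, 0.21 under a 30th-percentile floor, 0.20 on B alone (3 genes) and -0.30 without suffixed probe sets, where Fas was the single gene with a ratio. By role, bacterial controls gave medians of 0.69 for pro-survival, 0.55 for pro-death and 0.25 for death receptor genes. The pro-survival median of 0.41 became 0.17 with the Bcl2 bound entered and under a 30th-percentile floor. Array type A alone gave 0.77, 0.43 and 0.40, and B alone gave -0.65 for death receptor genes (Cflar only). The death receptor median was 0.43 under a 70th-percentile floor (Traf2 only) and -0.30 without suffixed probe sets. The caspase median went from 0.46 to -0.24 under a 30th-percentile floor, where 5 caspase genes in place of 2 had a ratio.

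Members higher by 2-fold numbered 1 on A alone and with the mean over probe sets, in both cases Bcl2l1, and 2 under a 30th-percentile floor, where 2 were lower and 1, Bid, had a bound of 2-fold or more. The bound of Bcl2 was under 2-fold with bacterial controls (-0.98), and under a 30th-percentile floor it was a ratio. The count of 1 member with a lower bound became 0 under these settings and at 3-fold, under a 70th-percentile floor, on B alone and without suffixed probe sets, also where _s was kept. Member probe sets past 2-fold numbered 1 as reported, 5 under a 30th-percentile floor and 0 at 3-fold, under a 70th-percentile floor, on B alone and without suffixed probe sets. Other pathway genes past 2-fold, 2 higher and 3 lower, became 0 and 1 at 3-fold, 1 and 1 under a 70th-percentile floor, 1 and 0 on B alone and without suffixed probe sets, 1 higher on A alone and 4 higher under a 30th-percentile floor. Of the 28 member probe sets, 22 ended in _s, a design whose probes can match more than 1 transcript.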
